A study of Mus musculus with 5 samples.

Results

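The genes described here are 6 STAT transcription factors, Stat2, Stat3, Stat4, Stat5a, Stat5b and Stat6, and 3 feedback inhibitors of the same pathway, Socs1, Socs3 and Cish. They were chosen by exact gene symbol, and all 9 were found among the 55291 symbols of the count tables. RNA of mouse bone marrow cells was sequenced, labelled "mononcytes", in 2 Tet2 mutant samples (titles HR2 and HR3, here replicates 2 and 3) and 3 wildtype samples (replicates 1, 2 and 3), in a series on inflammation and plasticity in myeloid transformation. The TET2 protein oxidises methylated cytosines, and mutations in its gene are common in myeloid malignancies. Not given in the sources used here were the meaning of HR, the Tet2 allele, the strain, the age and sex of the mice, the way the cells were isolated and whether each sample came from its own animal. The p-values therefore reflect differences among these 5 samples, and these may be technical in origin.

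Cytokines signal to the nucleus through the JAK-STAT pathway. A cytokine brings its receptor chains together, the Janus kinases bound to them phosphorylate the receptor, and STAT proteins dock there, are phosphorylated, pair up and enter the nucleus to switch on genes. The SOCS proteins and their relative CIS, encoded by Cish, are made in response to activated STATs and bind receptors or kinases, so that their transcripts are commonly read as a trace of recent cytokine signalling. In marrow, these factors carry signals from the growth factors of granulocytes, monocytes, red cells and platelets as well as from interferons and interleukins. STAT activity depends on phosphorylation, which was not measured here.

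In the Tet2-mutant libraries the transcripts of Socs1 and Socs3 were higher by log2 fold changes of 3.12 ± 0.49 and 2.45 ± 0.41 (SE), while none of the 6 STAT genes passed the test. Cish was high in 1 of the 2 mutant libraries and within the wild-type range in the other. Of the 9 genes, 2 were called higher and 0 lower by edgeR's quasi-likelihood test, with p-values adjusted by the Benjamini-Hochberg method over 17062 genes, a gene being called at an adjusted p under 0.05. At an unadjusted p under 0.05, 3 of the 9 were higher and 0 lower, and 2 or 3 of the 9 were called in each alternative tried. Unadjusted p-values under 0.05 were common, at least 6661 of the 17062 genes having one in either direction. The 3 at an unadjusted p under 0.05 are therefore no result about the set. Over all genes tested, 15.0% were called, 10.6% as higher and 4.43% as lower. With 9 genes a count of 2 is close to this background, so it is no result about the set as a whole. The median log2 fold change was 0.11 for the 6 STAT genes and -0.07 for all genes tested. The 2 calls were made in each of the 13 alternative analyses, 5 of which left out 1 library.

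The promoters of the 3 inhibitors are shown because Socs1 and Socs3 were the genes called and Cish is their relative among the 9, and because well-known STAT and interferon response motifs occur in them. Each window runs 5′ to 3′ on the gene's strand from 250 bases before to 50 after the annotated start (RefSeq, GRCm38.p6). The Socs1 window is chr16:10785487-10785786 on the minus strand, the Socs3 window is chr11:117969317-117969616 on the minus strand, and the Cish window is chr9:107296409-107296708 on the plus strand. The GENCODE annotation used below begins Socs3 and Cish further upstream, and there both windows lie inside the gene. Positions of matches are counted from the RefSeq start only. Capitals mark matches on either strand to TTCNNNGAA, the spaced palindrome bound by most STAT dimers, or to the repeat of interferon response elements, GAAA followed after any 2 bases by another GAAA.
Socs1: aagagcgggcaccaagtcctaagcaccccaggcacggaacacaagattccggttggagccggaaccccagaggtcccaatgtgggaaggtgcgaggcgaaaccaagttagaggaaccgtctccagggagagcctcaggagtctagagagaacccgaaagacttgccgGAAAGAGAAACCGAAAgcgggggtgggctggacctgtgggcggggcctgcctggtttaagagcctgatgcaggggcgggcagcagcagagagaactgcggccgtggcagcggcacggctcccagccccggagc
Socs3: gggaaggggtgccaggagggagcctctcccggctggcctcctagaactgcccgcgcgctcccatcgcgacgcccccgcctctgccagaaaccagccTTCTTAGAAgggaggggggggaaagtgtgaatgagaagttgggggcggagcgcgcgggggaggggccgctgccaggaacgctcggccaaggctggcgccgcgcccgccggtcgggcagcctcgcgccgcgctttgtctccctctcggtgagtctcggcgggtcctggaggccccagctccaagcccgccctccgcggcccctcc
Cish: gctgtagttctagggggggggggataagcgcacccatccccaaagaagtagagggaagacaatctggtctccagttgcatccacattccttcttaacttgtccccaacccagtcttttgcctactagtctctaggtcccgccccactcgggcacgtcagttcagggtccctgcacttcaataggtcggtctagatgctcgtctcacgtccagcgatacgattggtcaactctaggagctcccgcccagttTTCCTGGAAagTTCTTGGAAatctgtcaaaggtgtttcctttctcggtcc
The Socs1 window holds 2 overlapping matches to the GAAA repeat, GAAAGAGAAA and GAAACCGAAA, which begin 83 and 77 bases before the start. The Socs3 window holds 1 match to TTCNNNGAA, TTCTTAGAA, which begins 154 bases before the start. The Cish window holds 2, TTCCTGGAA at the start and TTCTTGGAA beginning 11 bases after it. Among 32851 promoter windows of this length, 8.3% held TTCNNNGAA at least once and 0.457% held it 2 or more times, while 3.44% held the GAAA repeat and 0.225% held 2 or more matches to it. The 9 genes have 12 such windows between them, and TTCNNNGAA was found in 2 of them, those of Socs3 and Cish. The GAAA repeat was found in 3 windows, that of Socs1, that of Stat2 (TTTCAGTTTC, read on the other strand) and 1 window of Stat4 (GAAAGTGAAA). Both strands were searched. The wider palindrome preferred by STAT6, with 4 bases between TTC and GAA, was found in 1 window, that of Stat2 (TTCCCTAGAA), and in 6.95% of all windows. A match in these letters is no measurement of binding.

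Tet2 itself measured 5.31 and 15.6 CPM in replicates 2 and 3 of the mutant, against 11.9, 9.77 and 10.6 CPM in the wild type. A mutant allele can still be transcribed at a normal level, and the labels cannot be checked by this value. The libraries held 17459808 and 60508381 gene counts in Tet2-mutant replicates 2 and 3 and 53789308 to 72414875 in the wild type. Genes with any count numbered 18047 and 17944 in the mutant libraries, against 24532, 25612 and 26207 in wild-type replicates 1, 2 and 3. Tet2-mutant replicate 3 held more counts than wild-type replicate 3 and still had fewer genes detected. This difference went with genotype in all 5 libraries, and its cause was not tested. Levels are given as CPM, the read count scaled to a common library size adjusted by TMM, a scaling that lines up the bulk of the genes. The 9 genes held from 257 to 18573 counts in every library, so counting error was small beside the spread between libraries. The mutant libraries differed from each other and from the wild type in their cell markers. In Tet2-mutant replicates 2 and 3, 8 macrophage markers summed to 4264 and 3133 CPM, against 246 to 319 CPM in the wild type. Likewise 10 T cell markers summed to 1166 and 938 CPM, against 109 to 204 CPM in the wild type, and 8 markers of conventional dendritic cells to 740 and 780 CPM, against 79.6 to 95.5 CPM. The 8 B cell markers summed to 976 and 7661 CPM in the mutant libraries, against 150 to 677 CPM. The label names no monocyte subset. Of 7 markers of classical monocytes, 1 was called higher and 0 lower, with sums of 2191 and 1098 CPM in the mutant libraries and 1519 to 1696 CPM in the wild type. Of 7 markers of non-classical monocytes, 3 were called higher and 0 lower, namely Nr4a1, Cd300e and Treml4, and their sums were 638 and 976 CPM in the mutant libraries, against 174 to 297 CPM in the wild type. The 10 neutrophil markers, S100a8 and S100a9 among them, were far more abundant than these. They summed to 53553 and 23827 CPM in the mutant libraries and 48164 to 59555 CPM in the wild type. Pancreatic acinar transcripts, foreign to marrow, summed to 552 and 1563 CPM in the mutant libraries and to 2.49 to 3.59 CPM in the wild type. In bulk samples, more RNA of a gene per cell and more cells that carry it cannot be told apart.

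Socs1 encodes an inhibitor that blocks the kinase activity of JAK1, JAK2 and TYK2 and restrains the response to interferons. Its level was 145 and 45.9 CPM in Tet2-mutant replicates 2 and 3, against 12.1, 11.9 and 9.03 CPM in wild-type replicates 1, 2 and 3. Both mutant libraries lay above every wild-type library, and replicate 2 was 3.16-fold above replicate 3. The means were 95.6 ± 70.2 CPM in the mutant (SD, n = 2) and 11.01 ± 1.72 CPM in the wild type (SD, n = 3). A log2 fold change of 3.12 was estimated (95% interval 1.96 to 4.27), with an adjusted p = 0.0114 by edgeR's quasi-likelihood test. It was 2.06 without Tet2-mutant replicate 2 and 3.71 without Tet2-mutant replicate 3, and its adjusted p ranged up to 0.0466 over the 13 alternatives.

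Socs3 encodes the inhibitor that binds gp130 and the G-CSF receptor and limits signalling through STAT3. The Socs3 level was 232 and 96.6 CPM in Tet2-mutant replicates 2 and 3, against 32.0, 22.1 and 35.8 CPM in wild-type replicates 1, 2 and 3. Again replicate 2 was the higher of the mutant libraries, by 2.40-fold, and both lay above all 3 wild-type libraries. The means were 164 ± 95.4 CPM in the mutant (SD, n = 2) and 29.97 ± 7.05 CPM in the wild type (SD, n = 3). For Socs3 the log2 fold change was 2.45 (95% interval 1.48 to 3.42), with an adjusted p = 0.0141 by edgeR's quasi-likelihood test. It was 1.69 without Tet2-mutant replicate 2 and 2.94 without Tet2-mutant replicate 3, and the adjusted p over the 13 alternatives reached 0.0472 at most.

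Cish encodes CIS, a classic target of STAT5 that binds the receptors of erythropoietin, interleukin-2 and interleukin-3. Its level was 69.2 CPM in replicate 2 of the Tet2 mutant and 8.01 CPM in replicate 3, against 6.35, 5.16 and 11.98 CPM in wild-type replicates 1, 2 and 3. Replicate 2 was thus 8.64-fold above the other mutant library, which lay between the lowest and the highest wild-type library. The log2 fold change of 2.30 ± 0.83 (SE, 95% interval 0.36 to 4.24) did not pass (adjusted p = 0.0899, edgeR's quasi-likelihood test). It was 0.03 without Tet2-mutant replicate 2 (adjusted p = 0.956), where the lone mutant library was taken to vary as the wild-type libraries do. Without Tet2-mutant replicate 3 it was 3.14 and was called higher (adjusted p = 0.00297), so that 1 library decided the value. It was also called by DESeq2 (adjusted p = 0.0278) and with no filter on low counts (adjusted p = 0.0027), and 3 of the 13 alternatives called it. By limma-voom it was 1.09 (adjusted p = 0.341). With the replicate block it was 1.58 (adjusted p = 0.497, edgeR's quasi-likelihood test). At the Cish locus (chromosome 9, 107296026 to 107302784) the annotation places an antisense gene and a pseudogene on the other strand, and the strand setting of the counting is not known here.

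**Figure D1:**
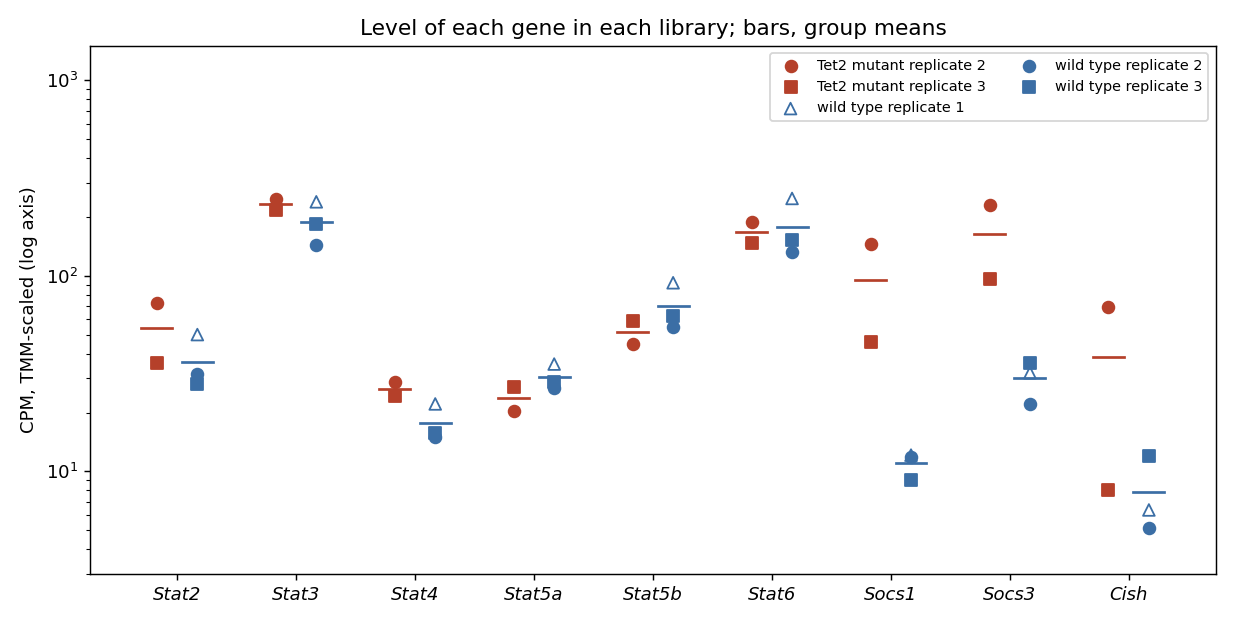
Level of each of the 9 genes in CPM on a log axis, 1 point per library, with red for Tet2 mutant, blue for wild type and bars for the group means. Socs1 and Socs3 lie above all wild-type points in both mutant libraries, while Cish is at 69.2 CPM in replicate 2 of the mutant and at 8.01 CPM in replicate 3.

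Socs1 and Socs3 were called with TMM, DESeq2 size factors, plain library size and upper-quartile scaling. The median over all genes shifted by -0.51 (log2) with plain library size and by -0.28 with upper-quartile scaling. Measured from the median of all genes, Socs1 was at 3.19 with TMM, 3.10 with plain library size and 3.07 with upper-quartile scaling. Socs3 was at 2.53, 2.46 and 2.44 on the same footing. On that scale the 6 STAT genes lay between -0.35 and 0.66 under all 4 scalings. By plain library size alone, Socs1 stood at 105 and 41.1 CPM in the mutant libraries, against 14.1, 13.8 and 10.3 CPM in the wild type. The rise of both inhibitors went with higher sums of macrophage, non-classical monocyte, T cell, B cell, dendritic cell and pancreatic acinar markers, given above. Of these, the macrophage and T cell sums were higher in replicate 2 of the mutant, as were both inhibitors. The other sums were higher in replicate 3. The part of any of those cells in the rise was not tested.

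**Figure D2:**
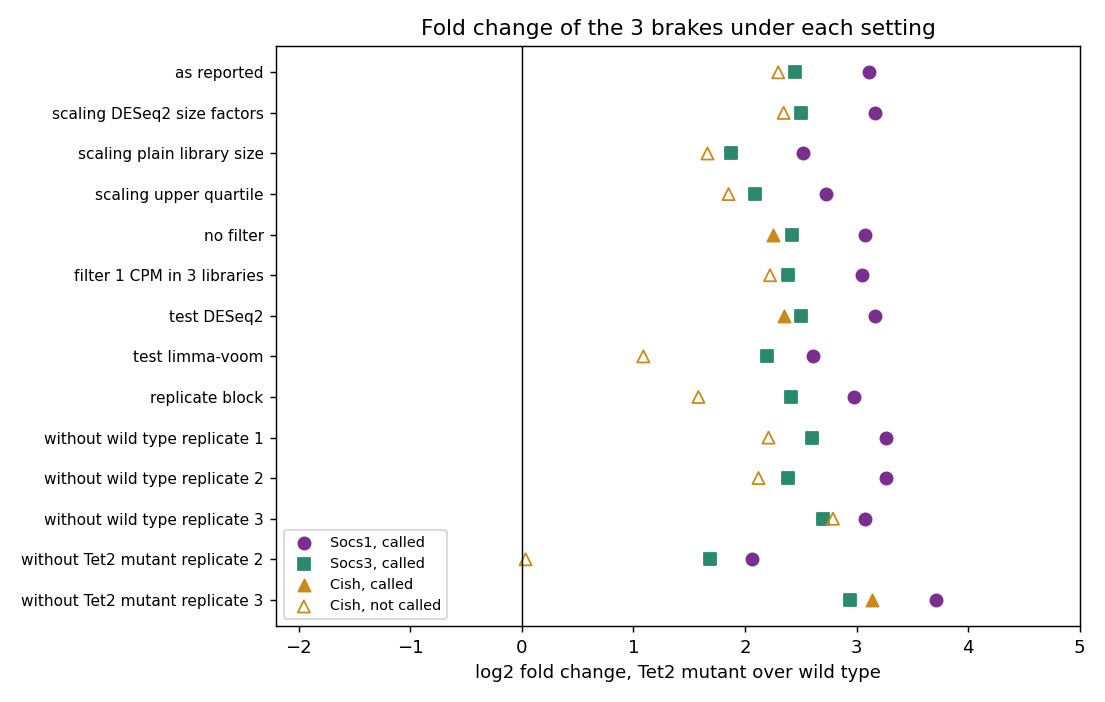
Log2 fold change of Tet2 mutant over wild type for Socs1, Socs3 and Cish (x axis) in the reported fit and 13 alternatives (rows), with filled symbols for an adjusted p under 0.05 and open symbols for none. Socs1 and Socs3 stay between 1.69 and 3.71, while Cish falls to 0.03 without Tet2-mutant replicate 2.

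Among the STAT genes, Stat2 encodes the partner that joins with IRF9 in ISGF3, the complex activated by type I interferon. The Stat2 level was 72.5 and 35.96 CPM in Tet2-mutant replicates 2 and 3, against 50.1, 31.4 and 27.9 CPM in the wild-type libraries. The groups overlapped, with wild-type replicate 1 between the mutant libraries. The log2 fold change was 0.57 ± 0.42 (SE, 95% interval -0.41 to 1.55, adjusted p = 0.328 by edgeR's quasi-likelihood test), and it was -0.02 without Tet2-mutant replicate 2.

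Stat3 encodes the factor that carries signals of interleukin-6, interleukin-10 and G-CSF. Its level was 249 and 218 CPM in Tet2-mutant replicates 2 and 3 and 239, 145 and 184 CPM in wild-type replicates 1, 2 and 3. Wild-type replicate 1 again reached the mutant range. The log2 fold change of 0.30 ± 0.28 (SE, 95% interval -0.36 to 0.96, adjusted p = 0.439 by edgeR's quasi-likelihood test) turned to -0.22 with plain library size. Measured from the median of all genes, Stat3 was at 0.38 with TMM and 0.36 with plain library size. The CPM ratio of Socs3 to Stat3 was 0.931 and 0.444 in the mutant libraries and 0.134, 0.153 and 0.195 in the wild-type libraries.

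Stat4 encodes the factor downstream of interleukin-12 that drives interferon-gamma in T and NK cells. Its level was 28.7 and 24.2 CPM in Tet2-mutant replicates 2 and 3, against 22.1, 15.0 and 15.8 CPM in wild-type replicates 1, 2 and 3. With TMM both mutant libraries lay above the wild type, as they did for 22.9% of all genes tested, while they lay below it for 33.3%. Of the 9 genes 3 lay above and 0 below. The log2 fold change was 0.58 ± 0.37 (SE, 95% interval -0.28 to 1.45) and did not pass (adjusted p = 0.263, edgeR's quasi-likelihood test). By plain library size the Stat4 groups overlapped, and the log2 fold change was 0.06. Measured from the median of all genes it was 0.66 with TMM and 0.64 with plain library size. By plain library size the mutant libraries stood at 20.7 and 21.7 CPM, against 25.8, 17.4 and 18.0 CPM in the wild type. Of the 10 T cell markers 5 were called higher and of 8 NK cell markers 2, and the part of such cells in the Stat4 level was not tested.

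Stat5a and Stat5b encode near-identical factors of the response to GM-CSF, interleukin-3, erythropoietin and thrombopoietin, and reads in their shared stretches may have been divided between them or dropped. Stat5a measured 20.4 and 27.1 CPM in replicates 2 and 3 of the mutant, against 35.4, 26.6 and 28.8 CPM in the wild-type libraries. Stat5b stood at 44.9 and 58.8 CPM in the mutant libraries, against 92.2, 54.9 and 62.3 CPM in the wild-type libraries. For both genes replicate 2 was below every wild-type library and replicate 3 was not, and wild-type replicate 1 was the highest. The log2 fold changes were -0.35 ± 0.34 (95% interval -1.15 to 0.45, adjusted p = 0.460) and -0.43 ± 0.33 (95% interval -1.20 to 0.34, adjusted p = 0.347), neither of which passed edgeR's quasi-likelihood test. The ratio of Stat5a to Stat5b in CPM was 0.453 and 0.460 in the mutant libraries and 0.384, 0.484 and 0.462 in the wild type. The ratio of Cish to the sum of both was 1.06 in the mutant library of replicate 2 and 0.0933 in that of replicate 3, against 0.0498, 0.0633 and 0.131 in the wild type.

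Stat6 encodes the factor of the interleukin-4 and interleukin-13 response, which drives alternative activation of macrophages and class switching in B cells. Its level was 188 and 147 CPM in Tet2-mutant replicates 2 and 3 and 249, 133 and 152 CPM in wild-type replicates 1, 2 and 3, with both mutant libraries inside the wild-type range. The log2 fold change was -0.09 ± 0.33 (SE, 95% interval -0.86 to 0.69, adjusted p = 0.856 by edgeR's quasi-likelihood test), and it was 0.37 without wild-type replicate 1. Intervals of this width leave changes of the STAT genes of up to 1.55 on the log2 scale in view. A missed call therefore does not show that a level was alike. In simulated counts with the spread of these data, the same test called 1 of 50 genes changed 2-fold and 12 of 50 changed 4-fold. Those counts covered 16189 genes and were not limited to genes as even as the STAT genes, whose SEs were 0.28 to 0.42. The power for genes with such SEs was not tested.

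**Figure D3:**
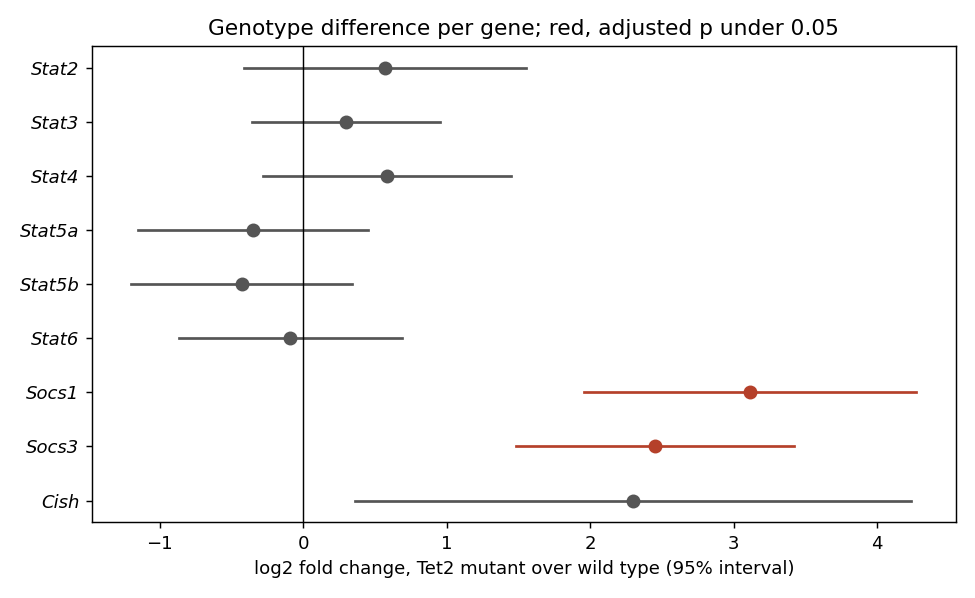
Log2 fold change of Tet2 mutant over wild type with its 95% interval for each gene, in red where the adjusted p was under 0.05. The intervals of Socs1 and Socs3 start at 1.96 and 1.48, that of Cish starts at 0.36 without an adjusted p under 0.05, and those of the 6 STAT genes span 0.

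In the genome (GENCODE M21, GRCm38) the STAT genes stand in groups. Stat5b (chromosome 11, 100780731 to 100850724, minus strand) lies 8626 bases from Stat5a (100859351 to 100885169, plus strand), whose end overlaps the end of Stat3 (100885098 to 100939540, minus strand). Without strand information, reads from that overlap could belong to either gene. Stat6 (127642986 to 127660957) and Stat2 (128270559 to 128292849) both lie on the plus strand of chromosome 10, and Stat4 (plus strand, 51987148 to 52107189) lies on chromosome 1. Socs1 (chromosome 16, 10782240 to 10785536) and Socs3 (chromosome 11, 117966079 to 117970047) lie on the minus strand with no overlapping gene in the annotation. Stat6 overlaps Nab2 on the other strand, and Stat4 overlaps a transcript and a pseudogene.

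Levels of different genes can be compared only per length, here as CPM per kb of merged exon over all annotated transcripts. In the mutant the order of mean level per kb was Socs3 at 56.8 ± 33.0, Stat6 at 38.01 ± 6.62, Socs1 at 32.9 ± 24.1, Stat3 at 24.5 ± 2.30, Stat5b at 9.36 ± 1.77, Stat2 at 9.15 ± 4.36, Stat4 at 6.83 ± 0.815, Cish at 6.02 ± 6.74 and Stat5a at 3.33 ± 0.666 (SD, n = 2). In the wild type it was Stat6 at 40.4 ± 14.1, Stat3 at 19.9 ± 4.99, Stat5b at 12.6 ± 3.56, Socs3 at 10.4 ± 2.44, Stat2 at 6.15 ± 2.01, Stat4 at 4.56 ± 1.01, Stat5a at 4.24 ± 0.642, Socs1 at 3.79 ± 0.592 and Cish at 1.22 ± 0.567 (SD, n = 3). Socs3 was the most abundant of the 9 per kb in both mutant libraries, where in the wild type it ranked 4, 4 and 3. Socs1 ranked 2 and 4 in Tet2-mutant replicates 2 and 3, against 8, 6 and 8 in wild-type replicates 1, 2 and 3. Neighbours in the mutant order overlapped in their libraries, apart from Stat3 with Stat5b. Neighbours in the wild-type order also overlapped in their ranges, apart from Stat6 with Stat3 and Socs1 with Cish. Within each wild-type library, however, Stat3 stood above Stat5b, Socs3 above Stat2, Stat2 above Stat4 and Stat4 above Stat5a. Stat5b with Socs3 and Stat5a with Socs1 changed places between libraries. The merged length of Cish is 6419 bases and covers every annotated transcript, which understates its level per kb where shorter ones are made.

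**Figure D4:**
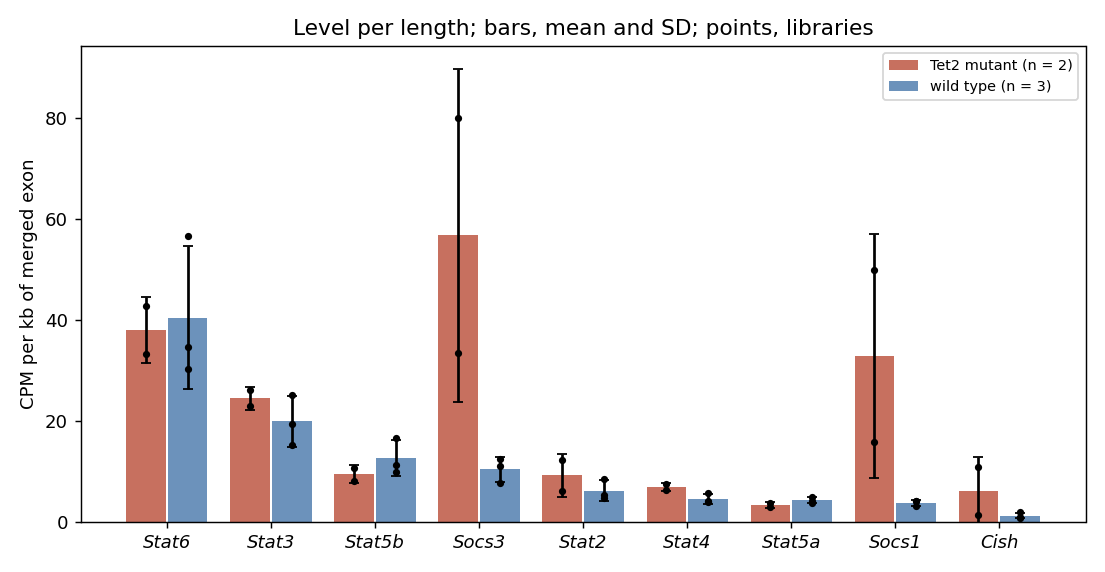
Level per kb of merged exon for each gene, as bars of the mean with its SD (red, Tet2 mutant, n = 2, and blue, wild type, n = 3) and 1 black point per library, ordered by the wild-type mean. Socs3 averages 56.8 CPM per kb in the mutant and 10.4 in the wild type, and Stat6 averages 38.01 and 40.4; the SD of Cish in the mutant is larger than its mean.

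The patterns across the 5 libraries can be set against all genes by the root mean square distance of log2 CPM centred on each gene's mean, a description over 5 samples of which 3 share a genotype. Among the 9 genes, Stat5a and Stat5b were closest (0.12), followed by Stat3 and Stat4 (0.16), and Socs1 and Socs3 were 0.46 apart. The genes nearest to Socs1 were Inppl1 (0.13), Clec4a1 (0.16) and Tyw3 (0.18). Nearest to Socs3 were Apol7e (0.10), Ptpn14 (0.16) and Plxnb2 (0.17). Cish had no neighbour as close, with Sdc2 at 0.24, the interferon-stimulated gene Isg15 at 0.26 and Rundc3a at 0.29. Isg15 measured 183 and 21.8 CPM in replicates 2 and 3 of the mutant, against 22.3, 22.6 and 38.6 CPM in wild-type replicates 1, 2 and 3. Nearest to Stat2, Stat3, Stat4, Stat5a, Stat5b and Stat6 were Nxpe3 (0.07), Acox3 (0.06), Cc2d1a (0.04), Thrap3 (0.03), Slc44a1 (0.03) and Aldh3a2 (0.07), in that order.

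Around these 9 genes, 117 other genes of the pathway were read in 10 overlapping lists, and 104 of them could be tested. Of those, 26 were called higher and 4 lower in the mutant. The same test called 10.6% of all genes as higher and 4.43% as lower, and each list's counts in the reported fit stand beside these shares. Fits without wild-type replicates 1, 2 and 3 called 622, 888 and 856 genes, and those without 1 mutant library called many more than the reported fit. Counts from the alternative fits are therefore not to be read against these shares. The calls were made in all 5 fits without 1 library for 9 genes, Il2rg, Ifngr1, Il10ra, Il21r, Il12b, Oas1a, Bst2, Bcl3 and Clec10a, and were lost in at least 1 of them for 21.

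None of the 4 Janus kinases was called, and none had an unadjusted p under 0.05 by edgeR or was called by DESeq2 or limma-voom. The fits without 1 mutant library, which called many more of all genes, did call some of the kinases. Jak1, used by most cytokine receptors, measured 252 and 168 CPM in replicates 2 and 3 of the mutant, against 398, 205 and 228 CPM in the wild type (log2 fold change -0.40 ± 0.36, adjusted p = 0.429). Jak2, the kinase of the erythropoietin and GM-CSF receptors, stood at 159 and 73.3 CPM in the mutant libraries, against 93.0, 61.8 and 62.0 CPM. Jak3, the partner of the common gamma chain, had a log2 fold change of 0.99 ± 0.45 (adjusted p = 0.147), and Tyk2, which serves interferon and interleukin-12 receptors, one of -0.54 ± 0.51 (adjusted p = 0.446). All adjusted p-values of list genes are from edgeR's quasi-likelihood test over all genes, and errors of fold changes are SE.

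Of the 5 other SOCS genes 1 was called, Socs2, an inhibitor of growth hormone signalling. The level of Socs2 was 40.7 and 9.23 CPM in Tet2-mutant replicates 2 and 3, against 3.08, 2.68 and 2.73 CPM in the wild type (log2 fold change 3.14 ± 0.67, adjusted p = 0.0295). Replicate 2 was once more the higher mutant library, as for Socs1, Socs3 and Cish. Its call was lost in each fit without 1 wild-type library and with the replicate block, with an adjusted p of 0.180 at most. Socs4, Socs5, Socs6 and Socs7 had log2 fold changes of -0.48, 0.41, -0.05 and 0.34, and none passed. For Socs5 and Socs7 the mutant libraries ran the other way round, with 1.51 and 1.74 CPM in replicate 2 and 7.68 and 10.5 CPM in replicate 3. Among 12 other brakes, the PIAS proteins, phosphatases and adaptors, 1 was called. Ptpn1, the phosphatase PTP1B that acts on JAK2 and TYK2, stood at 597 and 980 CPM in the mutant libraries, against 201, 220 and 242 CPM in the wild type (log2 fold change 1.83 ± 0.28, adjusted p = 0.0104), and its call was lost without wild-type replicate 1 (adjusted p = 0.059).

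Cytokine receptor chains pass the signal to the kinases. Of 28 tested, 9 were higher and 1 lower, with a median log2 fold change of 1.11. The median was 0.55 without Tet2-mutant replicate 2 and 0.57 with plain library size, where the medians of all genes were -0.30 and -0.58. Il2rg, the common gamma chain shared by the receptors of interleukins that signal through JAK3, measured 838 and 789 CPM in replicates 2 and 3 of the mutant, against 78.9, 66.0 and 63.1 CPM in the wild type (log2 fold change 3.55 ± 0.24, adjusted p = 0.000848). Ifngr1, the ligand-binding chain of the interferon-gamma receptor, stood at 1275 and 968 CPM in the mutant libraries, against 318, 285 and 306 CPM in the wild type (log2 fold change 1.89 ± 0.24, adjusted p = 0.00563). The receptors of interleukin-10 and interleukin-21, Il10ra and Il21r, were higher by 1.80 ± 0.26 and 1.88 ± 0.30 on the log2 scale (adjusted p = 0.00812 and 0.0121). Epor, the erythropoietin receptor, measured 34.3 and 12.85 CPM in the mutant libraries, against 81.2, 106 and 124 CPM in the wild type, and was the chain that was lower (log2 fold change -2.14 ± 0.47, adjusted p = 0.032), and it is named because it was the only one. Its call was lost without each wild-type library in turn, with an adjusted p of 0.0684 at most. Higher chains numbered 5, 4 and 4 without wild-type replicates 1, 2 and 3, beside 616, 870 and 842 higher among all genes. Epor is itself among the 7 red cell markers used here and was the only 1 of them called. These markers summed to 12657 and 1923 CPM in the mutant libraries and to 5434, 7149 and 14637 CPM in the wild type. The part of red cells in the Epor level was not tested.

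Of 23 cytokines that use these receptors, 14 had enough counts to test. An unadjusted p under 0.05 by edgeR in either direction was found for 8 of the 14, and for at least 6661 of all 17062 genes. After adjustment, 3 were higher and none was lower. These counts depended on the fit. With plain library size 2 were higher and 2 lower, beside 1181 higher and 2877 lower among all genes. Il12b encodes a chain of interleukin-12 and interleukin-23. It reached 44.0 and 12.4 CPM in replicates 2 and 3 of the mutant, against 0.0804, 0.143 and 0.229 CPM in the wild type (adjusted p = 0.0032). Ifng, which encodes interferon-gamma, stood at 8.16 and 15.2 CPM in the mutant libraries, against 1.88, 0.942 and 1.22 CPM in the wild type (log2 fold change 3.12 ± 0.66, adjusted p = 0.0291). Ebi3, a subunit of interleukin-27, had a log2 fold change of 1.36 ± 0.35 (adjusted p = 0.0442). The calls of Ifng and Ebi3 were lost without each wild-type library in turn and with the replicate block, with adjusted p-values of 0.280 and 0.101 at most.

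Textbook targets were counted STAT by STAT. Of 15 targets of ISGF3, 5 were higher and 1 lower, with a median log2 fold change of 1.81. The median was 0.26 without Tet2-mutant replicate 2, 0.70 with limma-voom and 1.17 with plain library size, so that 1 library decided much of its size. The medians of all genes in these 3 fits were -0.30, -0.21 and -0.58. Oas1a, an enzyme whose product activates RNase L, measured 201 and 99.6 CPM in replicates 2 and 3 of the mutant, against 22.7, 29.6 and 21.3 CPM in the wild type (log2 fold change 2.61 ± 0.36, adjusted p = 0.00691), and the antiviral factors Bst2, Ifi44 and Irf7 were higher by 1.89, 4.604 and 2.05 on the log2 scale (adjusted p = 0.0175, 0.0197 and 0.021). Oas3, a relative of Oas1a, was the target called lower (log2 fold change -2.01, adjusted p = 0.0361), and its call was lost without each wild-type library in turn. The calls of Ifi44 and Irf7 were lost without wild-type replicate 1 (adjusted p = 0.0613 and 0.0509). Members of the Oas family resemble each other, so their counts are uncertain. Without wild-type replicate 1, 2 targets were called higher, beside 616 of all genes.

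Of 10 STAT3 targets 1 was higher and 1 lower (median 0.35). Bcl3, an NF-kB regulator, measured 186 and 223 CPM in replicates 2 and 3 of the mutant, against 40.5, 37.99 and 60.7 CPM in the wild type (log2 fold change 2.14 ± 0.29, adjusted p = 0.0066), while Nfkbiz, another regulator of NF-kB, had a log2 fold change of -1.06 ± 0.27 (adjusted p = 0.044) that was lost without each wild-type library. Of 7 STAT4 targets, Ifng was higher and Il18rap, a chain of the interleukin-18 receptor, was lower (log2 fold change -1.93 ± 0.41, adjusted p = 0.0293), again lost without each wild-type library. Of 8 STAT5 targets 1 was called (median 0.07). Ccnd2, a cyclin of the entry into cell division, stood at 145 and 355 CPM in the mutant libraries, against 52.7, 63.3 and 71.4 CPM in the wild type (log2 fold change 2.001 ± 0.39, adjusted p = 0.0215), with an adjusted p = 0.0982 without wild-type replicate 1. Unlike Cish, Ccnd2 was higher in replicate 3 than in replicate 2 of the mutant.

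Among the STAT6 targets, 5 of 8 tested genes were higher and none lower (median 1.85), while Stat6 itself was not called. Clec10a, a lectin of alternatively activated macrophages, measured 71.2 and 65.4 CPM in replicates 2 and 3 of the mutant, against 11.7, 18.0 and 16.3 CPM in the wild type (log2 fold change 2.16 ± 0.32, adjusted p = 0.00948). Ccl22, a chemokine of dendritic cells and macrophages, stood at 36.9 and 3.25 CPM in the mutant libraries, against 0.335, 0.238 and 0.473 CPM in the wild type (adjusted p = 0.0178). Pdcd1lg2, which encodes the PD-1 ligand PD-L2, stood at 3.72 and 46.1 CPM, against 0.683, 0.739 and 0.457 CPM (adjusted p = 0.0209), and the nuclear receptor gene Pparg at 14.6 and 56.2 CPM, against 6.61, 6.01 and 5.29 CPM (adjusted p = 0.0344). Without wild-type replicate 1 the calls of Ccl22, Pdcd1lg2 and Pparg were lost, that of Pdcd1lg2 also without wild-type replicate 3 and that of Pparg without each wild-type library. Among the STAT6 targets that were not called, Arg1, the arginase of alternative activation, stayed at 1.35 CPM or less in all libraries. Chil3 had a log2 fold change of 0.08 (adjusted p = 0.885). Fcer2a went the other way, with a log2 fold change of -2.57 ± 1.40 (adjusted p = 0.203). It measured 3.01 and 0.277 CPM in the mutant libraries, against 18.95, 8.12 and 1.22 CPM in wild-type replicates 1, 2 and 3. The called targets are also expressed by macrophages and dendritic cells. Of the markers of those cells, 7 of 8 and 4 of 8 were called higher, and the part of such cells was not tested. Without wild-type replicates 1, 2 and 3 the higher targets numbered 1, 3 and 2, beside 616, 870 and 842 higher among all genes.

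**Figure D5:**
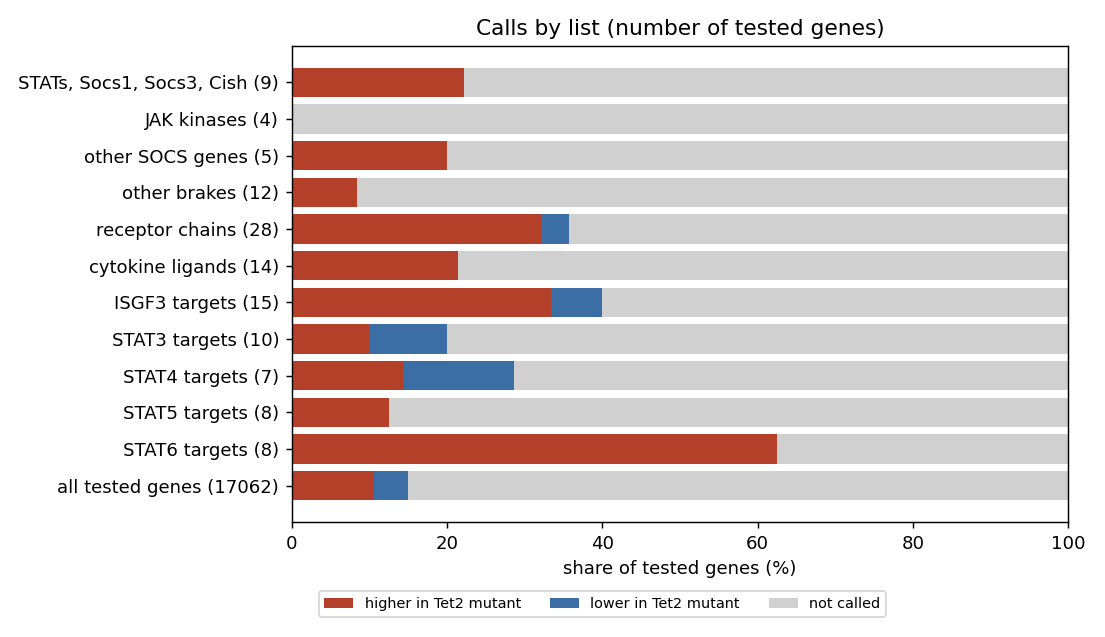
Share of tested genes called higher (red) or lower (blue) in Tet2 mutant, or not called (grey), for the 9 genes, each pathway list and all genes, with the number tested in brackets. Of STAT6 targets 5 of 8 were higher, of Janus kinases 0 of 4, and of all genes 15.0% were called in either direction.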

How the data were processed

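RNA-seq gene counts from 5 bone marrow samples labelled as monocytes were analysed, 2 Tet2 mutant and 3 wild type, grouped by the genotype label. Per the labels' protocols, RNA came from an RNeasy mini plus kit and 1.3 ug per library entered a SMARTer mRNA-Seq preparation. Per the submitters' processing notes, Trimmomatic and STAR were used with mm10. Their versions, the counter, the annotation and the strand setting were not given in the sources used here. Raw counts per gene symbol were deposited, 1 file per library.

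Counts were tested in R 4.3.3 with edgeR 4.0.16 (filterByExpr, TMM, quasi-likelihood test, p-values adjusted by Benjamini-Hochberg over 17062 genes). The SE is the absolute log2 fold change divided by the square root of F, and the 95% interval uses the t distribution of that test. The common biological coefficient of variation was 0.507. DESeq2 1.42.0, limma 3.58.1 (voom), other scalings and filters, the replicate block and each library left out were alternatives. The test was checked on simulated counts of 16189 genes with 200 changed genes: it called 1, 12, 26 and 35 of 50 genes changed 2-, 4-, 8- and 16-fold, with 3 false calls.

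The 9 genes and the lists were chosen with earlier results of these data known. Named list genes were up to 4 called genes with the smallest p per list, all Janus kinases and SOCS genes, and the 3 genes nearest in pattern to each of the 9 (the nearest one only for the STAT genes). Epor, Oas3, Arg1, Chil3 and Fcer2a were named after their values were seen. No set test was made. No 2 libraries of 1 genotype agreed within sampling noise (chi-square per degree of freedom 103 to 330), so none was treated as a library deposited in duplicate. That does not show that they came from separate animals. Spread and errors cover counting error and differences between these libraries only.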

Additional observations from a re-analysis of the deposited data

How the results depend on the processing

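Of 117 refits of the 9 fold changes (13 alternatives each), 109 kept their direction and their side of the threshold. Plain library size turned Stat3 to -0.22 on the log2 scale, with the median of all genes at -0.58, and the replicate block turned Stat6 to 0.22. Cish became called with no filter (2.25) and by DESeq2 (2.35). Leaving out each library in turn gave log2 fold changes of -0.02 to 0.99 for Stat2, -0.28 to 0.37 for Stat6 and 0.03 to 3.14 for Cish, and 2 to 3 called among the 9 genes. Stat6 was 0.37 without replicate 1 of the wild type and 0.07 without replicate 3 of the mutant, and without its replicate 2 Stat2 was -0.0212 and Cish 0.0333. Pathway genes called lower numbered 8 with plain library size, 7 with upper-quartile scaling, 7 by DESeq2 and 2 with the replicate block, which called 19 in all and 17 higher. Without 1 library each, 10 to 62 pathway genes were called, 10 to 49 higher and 0 to 19 lower. Over all genes, plain library size called 4058 (1181 higher, 2877 lower), no filter 4557 (3059 higher, 1498 lower), DESeq2 5109 (2972 higher, 2137 lower) and the replicate block 984 (752 higher, 232 lower). Lower genes numbered 1837 with upper-quartile scaling, 472 with the filter at 1 CPM in 3 libraries and 1365 with limma-voom. Without 1 library each, 622 to 10862 genes were called, 616 to 4904 higher and 6 to 5958 lower. The share of called genes that were higher was 70.5%, against 29.1% with plain library size and 43.6% with upper-quartile scaling. The TMM factors were 0.723 and 0.896 in Tet2-mutant replicates 2 and 3 and 1.17, 1.16 and 1.14 in wild-type replicates 1, 2 and 3. Plain library size leaves these factors out. The cause of their difference between the genotypes, and that of the other shifts, was not tested.

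Replicate numbers 2 and 3 occur in both genotypes, but no label says that a number marks a shared animal or batch. Deviations from the group means correlated at -0.0269 and -0.0242 for same-numbered libraries and 0.0242 and 0.0269 for crossed ones. Centring 2 mutant libraries makes their deviations mirror images, so the crossed values carry the same sizes with the sign turned, and a pairing can be neither shown nor dismissed from them. With 2 mutant libraries, a fit without either leaves 1 that is assumed to vary like the wild type. The shallowest library, Tet2-mutant replicate 2, is also the one with the highest Socs1, Socs3 and Cish.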
